A study of Homo sapiens with 6 samples.

Results

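Chromosome 1 carries, near the end of its short arm, 5 genes for proteins of the endoplasmic reticulum (ER), the Golgi apparatus and the peroxisome: SDF4, B3GALT6, UBE2J2, RER1 and PEX10. The rule names them by these functions and uses no measured value, although it was set with earlier results of these data known. They were matched by symbol to the Ensembl identifiers of the count lists. All 5 were among the 220 genes listed for all 6 libraries, which lie at the start of the 67140 genes listed for the etoposide libraries. U2OS cells, a human osteosarcoma line labelled as wild type, were sequenced as polyadenylated RNA in 3 groups of 2 libraries: untreated control, etoposide (100 μM, 4 h) and adriamycin (4 h at 1.5 μg/ml). Adriamycin (doxorubicin) is an anthracycline that intercalates into DNA and poisons topoisomerase II, and etoposide poisons topoisomerase II without intercalating. The comparisons ask how each drug changed the transcripts of these genes relative to untreated cells, and whether the drugs differed from each other. The labels do not say whether the 2 libraries of a group came from separate cultures, so the p-values below measure the spread between these libraries, which may be technical. That spread was pooled over the tested genes, so a gene's own difference between duplicates does not set its SE or p-value.

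Proteins that are secreted or inserted into membranes fold in the ER and pass through the Golgi, where sugars are added and cargo is sorted. Escaped ER proteins are carried back, and misfolded ones are pulled into the cytosol, tagged with ubiquitin and degraded. The peroxisome, which oxidises very long chain fatty acids, imports its enzymes folded, with the help of receptors that are recycled by ubiquitination. SDF4 (ENSG00000078808) encodes Cab45, a calcium-binding protein of the Golgi lumen that takes part in cargo sorting. B3GALT6 (ENSG00000176022) encodes a Golgi galactosyltransferase that builds the linker joining glycosaminoglycan chains to proteoglycan core proteins. RER1 (ENSG00000157916) encodes a receptor that returns ER membrane proteins from the early Golgi. UBE2J2 (ENSG00000160087) encodes a ubiquitin-conjugating enzyme anchored in the ER membrane and used in ER-associated degradation. PEX10 (ENSG00000157911) encodes a RING ubiquitin ligase of the peroxisomal membrane that acts on the import receptor PEX5.

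The 5 genes lie in 2 places on chromosome 1 (GRCh38, GENCODE coordinates). SDF4 (1216931 to 1232031, minus strand) and the single-exon gene B3GALT6 (1232237 to 1235041, plus strand) point away from each other, with 205 bases between their 5′ ends. UBE2J2 (1253909 to 1273864, minus strand) begins 18867 bases beyond B3GALT6. RER1 (2391775 to 2405442, plus strand) lies 1117910 bases further along and points away from MORN1, whose 5′ end is 67 bases away. RER1 and PEX10 (2403964 to 2413797, minus strand) run towards each other, and their 3′ ends overlap by 1479 bases that are exonic in both. The overlap makes up 26.0% of the merged exon length of RER1 and 39.1% of that of PEX10. The strand setting of the read counting is not given in the sources used here, so reads from the overlap cannot be told apart and the counts of this pair are uncertain to that extent.

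The sequences below lie between or just before the annotated 5′ ends, outside annotated exons, and are shown because SDF4 and B3GALT6 share the first of them while the ratio of their counts was widest with adriamycin, and because those before UBE2J2 and RER1 hold the same motif. They are from the RefSeq promoter windows (GRCh38.p14), 5′ to 3′, with capitals marking the motifs named for each of them here, on either strand. The GC box, also searched, is left in lower case. The first is chr1:1232032-1232236 on the plus strand, with the letters CCAAT 2 times, the second time as ATTGG on the other strand, and the palindrome CACGTG between them. The second is chr1:2391708-2391774 on the plus strand, between MORN1 and RER1, with CCGGAAG. The third is chr1:1273865-1274104 on the minus strand, ending at the 5′ end of UBE2J2, also with CCGGAAG.
SDF4 and B3GALT6: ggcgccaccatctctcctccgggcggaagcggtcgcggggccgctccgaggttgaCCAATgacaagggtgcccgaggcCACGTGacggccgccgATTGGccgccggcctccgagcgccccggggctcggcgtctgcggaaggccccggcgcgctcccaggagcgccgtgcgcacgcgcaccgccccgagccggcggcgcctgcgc
MORN1 and RER1: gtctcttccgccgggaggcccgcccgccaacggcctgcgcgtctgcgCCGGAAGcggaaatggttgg
UBE2J2: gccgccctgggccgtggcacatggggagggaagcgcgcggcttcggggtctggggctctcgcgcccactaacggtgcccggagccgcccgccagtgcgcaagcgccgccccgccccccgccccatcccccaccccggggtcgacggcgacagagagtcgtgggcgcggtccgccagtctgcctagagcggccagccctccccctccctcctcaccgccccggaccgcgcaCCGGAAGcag

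All 5 genes had a RefSeq promoter window, which spans 300 bases around the start, and PEX10 had 2 of them. The search covered both strands, and the motifs were chosen after these sequences had been seen. CCAAT and CACGTG were found in the windows of SDF4 and B3GALT6, which overlap and hold the same letters, and in 1 of the 2 windows of PEX10. CCAAT is present in 34.6% and CACGTG in 7.26% of all 35116 promoter windows of this length. CCGGAAG, the core bound by ETS factors, was found for UBE2J2 and RER1 and in 10.3% of all windows. AAGATGG, the core bound by YY1, was found for SDF4, UBE2J2 and RER1 and in 5.84% of all windows. GGGCGG (the GC box) was present in every one of these windows and in 45% of all windows, and TATAAA in none of them and in 11.5% of all windows. The windows were rich in G and C, at 66.3% to 79.7% against a median of 58.7%, and 29.5% of all windows reached the lowest of these values. These matches describe letters only.

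The summed counts of the 220 genes ranged from 59357 to 92794 per library. In each etoposide library this was 0.43% of all counts, and the full sizes of the control and adriamycin libraries are not known here. No count was found in any library for 46 of these genes. The etoposide libraries had 21450766 and 14244235 counts over all listed genes. A single gene, AGRN, took 21.1% to 29.0% of the shared counts, so values between libraries depend on how that gene enters the scaling. Every scaling of the 6 libraries was computed from these shared genes. Rises and falls below are therefore relative to them and not to the whole transcriptome. The cell type in the labels is epithelial and the tissue bone. In the etoposide libraries, where genes across the genome could be read, the epithelial keratins KRT8 and KRT18 averaged 451 and 252 TPM (transcripts counted per length and scaled to a fixed total), EPCAM 18.2 and CDH1 0.80, while of the bone genes COL1A1 averaged 1368, SPARC 849, RUNX2 2.03 and SP7 0.23.

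Per length, the order of the 5 genes was the same in all 6 libraries. On the scale of normalised counts per kilobase of merged exons, SDF4 was highest at 607 to 925, followed by RER1 at 240.3 to 268, UBE2J2 at 148 to 225, B3GALT6 at 56.8 to 111 and PEX10 at 40.9 to 60.1. Only B3GALT6 and PEX10 overlapped within a group, in the adriamycin libraries, where B3GALT6 had 64.0 and 56.8 and PEX10 had 60.1 and 48.4. With the longest transcript in place of the merged exons these genes changed places in the adriamycin libraries.

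Summed over the 5 genes there were 7068 and 5113 counts in the controls, 8999 and 5348 with etoposide and 6480 and 4682 with adriamycin. This was 7.91% and 8.0%, 9.70% and 8.72%, and 8.13% and 7.89% of the shared counts. Both etoposide libraries were thus above the other 4, a share that AGRN enters through the total.

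Beginning with the Golgi proteins, SDF4 rose with adriamycin, while its value with etoposide depended on the scaling. Its raw counts were 3646 and 2480 in the controls, 4611 and 2714 with etoposide and 4008 and 2855 with adriamycin. After normalisation they were 2954 and 2845 (control), 3121 and 2855 (etoposide) and 4335 and 3988 (adriamycin), or 2900 ± 77.1, 2988 ± 188 and 4161 ± 245 (SD, n = 2). Both adriamycin libraries lay above all 4 others, and the control and etoposide libraries overlapped. The change with adriamycin was 1.44-fold (95% interval 1.27 to 1.62), or 0.52 on the log2 scale (SE 0.088, adjusted p = 7.81e-08 from the quasi-likelihood test of edgeR, adjusted by Benjamini-Hochberg over 94 tested genes). With etoposide the log2 fold change was 0.04 (95% interval -0.13 to 0.22, adjusted p = 0.778), and with upper-quartile scaling it was 0.27 (adjusted p = 0.00954). Set directly against etoposide, adriamycin gave a log2 fold change of 0.48 (SE 0.087, adjusted p = 5.41e-07), which was 0.06 (adjusted p = 0.566) when libraries were scaled by their summed counts alone and 0.19 (adjusted p = 0.0451) when AGRN was left out of those sums.

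B3GALT6, on the other side of the shared sequence, had the largest difference between the drugs among the 5 genes. Its raw counts were 248 and 241 in the controls, 462 and 268 with etoposide and 166 and 114 with adriamycin. The normalised counts were 201 and 276 (control), 313 and 282 (etoposide) and 180 and 159 (adriamycin), or 239 ± 53.4, 297 ± 21.7 and 169 ± 14.3 (SD, n = 2). The etoposide libraries were the highest and the adriamycin libraries the lowest, and the 3 groups did not overlap, although the lower etoposide library was close to the higher control library.

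Relative to etoposide, B3GALT6 fell 1.76-fold with adriamycin, by 0.81 on the log2 scale (SE 0.16, 95% interval -1.12 to -0.50, adjusted p = 1.93e-06 by edgeR). Neither drug passed the threshold of an adjusted p under 0.01 against the control. The log2 fold changes were 0.35 with etoposide (SE 0.14, 95% interval 0.07 to 0.63, adjusted p = 0.0398) and -0.46 with adriamycin (SE 0.17, 95% interval -0.79 to -0.14, adjusted p = 0.0145). Both values depended on single control libraries and on the scaling. Without control replicate 1 the changes were 0.11 and -0.66, the latter with an adjusted p of 0.00657, and without control replicate 2 they were 0.56 and -0.24. B3GALT6 passed with etoposide under 3 of the 4 other scalings (0.57, 0.55 and 0.50) and with adriamycin under 2 of them (-0.68 and -0.59).

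RER1, the retrieval receptor, passed in no comparison with TMM scaling. Raw counts were 1687 and 1275 in the controls, 2158 and 1330 with etoposide and 1408 and 1085 with adriamycin. The normalised counts were 1367 and 1463, 1461 and 1399, and 1523 and 1516, so that the adriamycin libraries lay just above the other 4. The log2 fold changes were 0.02 with etoposide (95% interval -0.16 to 0.20, adjusted p = 0.875) and 0.10 with adriamycin (95% interval -0.08 to 0.29, adjusted p = 0.337). The value with adriamycin was 0.30 under upper-quartile scaling (adjusted p = 0.00559) and -0.11 when libraries were scaled by summed counts alone (adjusted p = 0.268). Adriamycin against etoposide gave 0.09 (adjusted p = 0.439) with TMM and -0.33 (adjusted p = 0.00103) with summed counts alone, so the direction for RER1 was not settled.

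UBE2J2, the ER ubiquitin-conjugating enzyme, fell with adriamycin. Its raw counts were 1234 and 919 in the controls, 1467 and 889 with etoposide and 688 and 497 with adriamycin. The normalised counts were 999.8 and 1054 (control), 993 and 935 (etoposide) and 744 and 694 (adriamycin), or 1027 ± 38.5, 964 ± 40.7 and 719 ± 35.2 (SD, n = 2). Both adriamycin libraries lay below all 4 others.

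The decrease of UBE2J2 with adriamycin was 1.42-fold, -0.51 on the log2 scale (SE 0.10, 95% interval -0.71 to -0.31, adjusted p = 4.71e-06 by edgeR). With etoposide its log2 fold change was -0.09 (95% interval -0.27 to 0.10, adjusted p = 0.505). Against etoposide, adriamycin lowered it 1.34-fold, by 0.42 on the log2 scale (SE 0.10, adjusted p = 9.36e-05).

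PEX10, the peroxisomal ligase, was the least abundant of the genes per length, and none of its comparisons passed. Raw counts were 253 and 198 in the controls, 301 and 147 with etoposide and 210 and 131 with adriamycin. The normalised counts were 205 and 227, 204 and 155, and 227 and 183 (control, etoposide and adriamycin), and the adriamycin libraries overlapped both other groups, while the higher etoposide library lay just below the lower control library. Its log2 fold changes were -0.23 with etoposide (SE 0.16, 95% interval -0.54 to 0.08, adjusted p = 0.224) and -0.05 with adriamycin (SE 0.17, 95% interval -0.38 to 0.27, adjusted p = 0.790). The interval with etoposide includes a decrease as large as that of UBE2J2 with adriamycin, so a change of that size could not be told from no change at this depth.

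**Figure D1:**
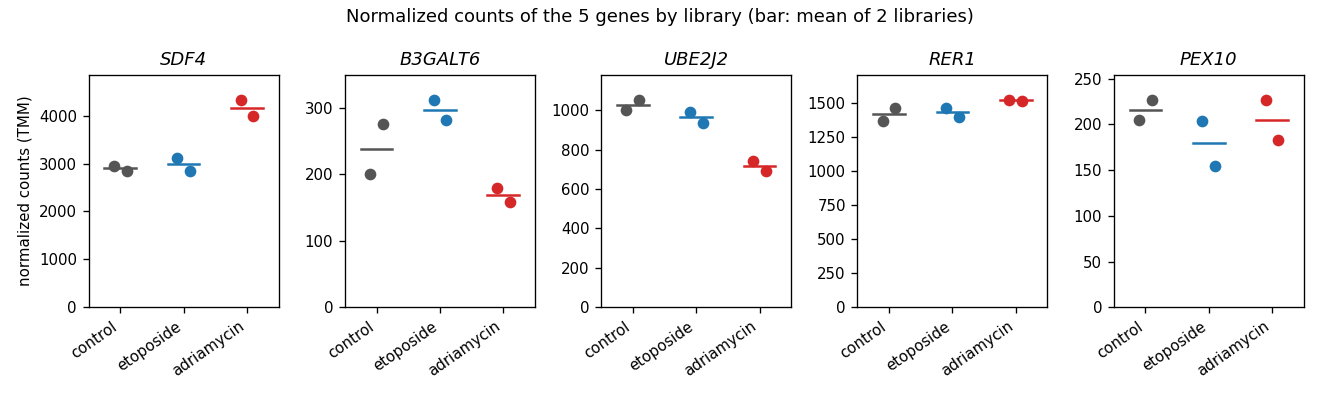
Normalised counts (TMM, linear axes starting at 0) of each gene in the control, etoposide and adriamycin libraries, 1 point per library, with a bar at the mean of the 2 libraries. The adriamycin points of SDF4 (4335 and 3988) sit above all others, those of UBE2J2 (744 and 694) and B3GALT6 (180 and 159) below all others, and those of RER1 and PEX10 stay near the control points.

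Counting the genes by comparison, 0 of 5 passed an adjusted p under 0.01 with etoposide against the control, where 23.4% of the 94 tested genes did (6.38% higher and 17.0% lower). With adriamycin against the control, 2 of 5 passed, SDF4 higher and UBE2J2 lower, where 36.2% of all tested genes did (19.1% higher and 17.0% lower). With adriamycin against etoposide, 3 of 5 passed, SDF4 higher and B3GALT6 and UBE2J2 lower, where 45.7% of all tested genes did (21.3% higher and 24.5% lower). Without etoposide replicate 1 none of the 3 passed between the drugs (SDF4 0.57, adjusted p = 0.0107; B3GALT6 -0.70, adjusted p = 0.0556; UBE2J2 -0.35, adjusted p = 0.0306). B3GALT6 also missed the threshold without etoposide replicate 2 (-0.84, adjusted p = 0.0114) and UBE2J2 without adriamycin replicate 2 (-0.36, adjusted p = 0.0151). The counts of 2 and 3 are near the background share, and both control comparisons share the same control libraries. At an unadjusted p under 0.05, 42 of the tested genes passed with etoposide, 49 with adriamycin and 53 between the drugs.

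None of the 5 reached the additional threshold of a change over 1 on the log2 scale in any comparison, against 5.32%, 8.51% and 12.8% of all tested genes. At an adjusted p under 0.05 the counts were 1, 3 and 3 of 5, B3GALT6 being the gene added against the control, beside 36.2%, 47.9% and 52.1% of all tested genes. The median log2 fold changes of the 5 genes were 0.02 with etoposide, -0.05 with adriamycin and 0.09 between the drugs. Over all tested genes these medians were 0.03, -0.07 and -0.03.

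**Figure D2:**
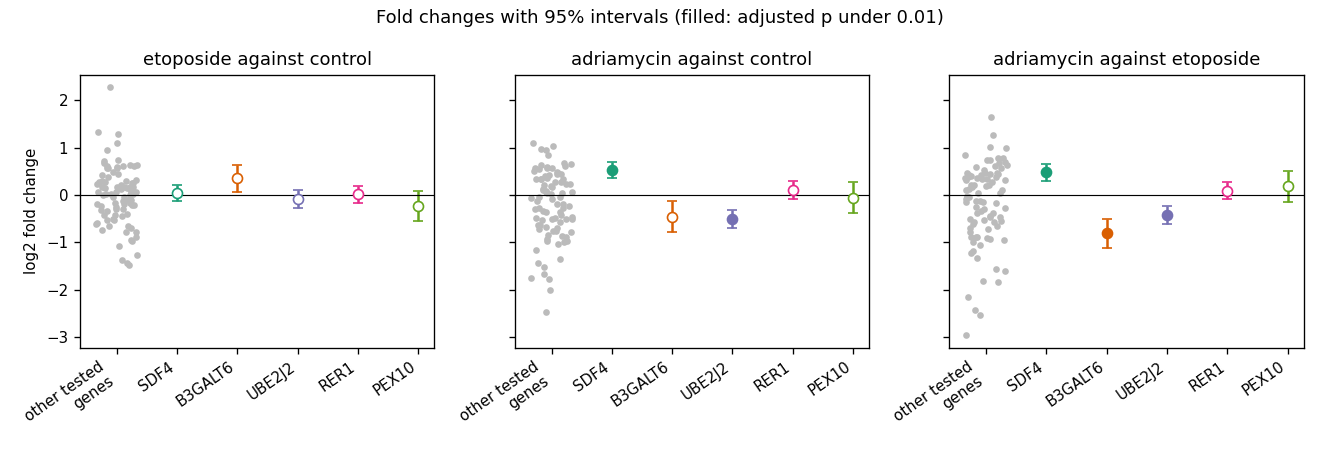
Log2 fold changes of the 5 genes with 95% intervals in the 3 comparisons, filled where the adjusted p was under 0.01, beside grey points for the other tested genes. SDF4 is filled at 0.52 and 0.48 and UBE2J2 at -0.51 and -0.42 in the adriamycin comparisons, B3GALT6 is filled at -0.81 against etoposide alone, and all 5 lie within the spread of the other genes.

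The composition of the counts within a library needs no scaling between libraries, and it was read without a test. SDF4 made up 51.6% and 48.5% of the summed counts of the 5 genes in the control libraries, 51.2% and 50.7% with etoposide and 61.9% and 61% with adriamycin. UBE2J2 made up 17.5% and 18.0%, 16.3% and 16.6%, and 10.6% and 10.6%. SDF4 thus had a higher share and UBE2J2 a lower share in both adriamycin libraries than in the other 4.

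B3GALT6 had the lowest shares with adriamycin as well. It took 3.51% and 4.71% in the control libraries, 5.13% and 5.01% with etoposide and 2.56% and 2.43% with adriamycin. RER1 ranged from 21.7% to 24.9% and PEX10 from 2.75% to 3.87% over all libraries. Since a higher share of SDF4 lowers the others, the shares were also taken without it. UBE2J2 was then 36.1% and 34.9% (control), 33.4% and 33.8% (etoposide) and 27.8% and 27.2% (adriamycin), still lowest with adriamycin. B3GALT6 was also lowest with adriamycin, at 6.72% and 6.24%, beside 7.25% and 9.15% (control) and 10.5% and 10.2% (etoposide). RER1 was highest with adriamycin, at 57.0% and 59.4%, beside 49.3% and 48.4% (control) and 49.2% and 50.5% (etoposide). PEX10 ranged from 5.58% to 8.5%. In these shares a lower value of UBE2J2 raises the others in turn.

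Ratios of raw counts between pairs of genes are likewise free of the scaling. For each count of UBE2J2 there were 2.95 and 2.70 counts of SDF4 in the control libraries, 3.14 and 3.05 with etoposide and 5.83 and 5.74 with adriamycin. For each count of B3GALT6, its divergent neighbour, SDF4 had 14.7 and 10.3 counts, 9.98 and 10.1, and 24.1 and 25. Both ratios were highest in the adriamycin libraries, without overlap. The ratio of RER1 to PEX10 was 6.67 and 6.44, 7.17 and 9.05, and 6.70 and 8.28, with the adriamycin libraries inside the range of the others.

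**Figure D3:**
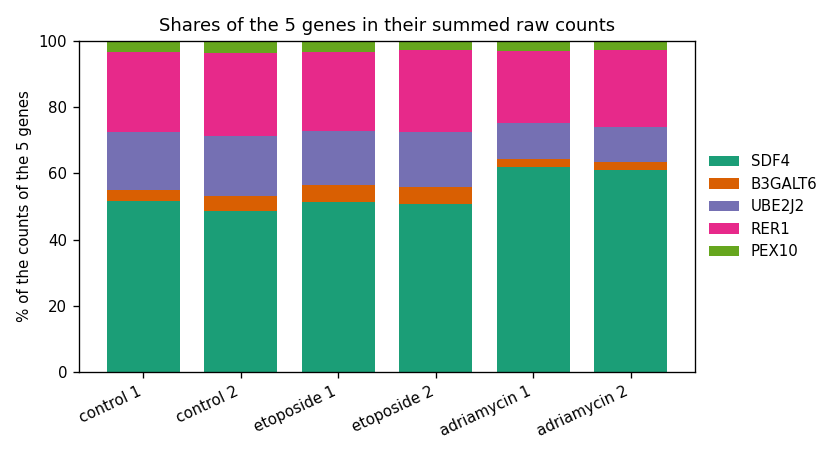
Stacked bars of the raw counts of each gene as a percentage of the summed counts of the 5 genes, 1 bar per library, from 0 to 100%. SDF4 fills 48.5% to 51.6% of the control and etoposide bars and 61% to 61.9% of the adriamycin bars, and UBE2J2 narrows from 16.3% or more to 10.6%.

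The genes beside them did not all move with them. Within 100 kb of the start of B3GALT6, 9 other genes were tested, of which 4 rose and 1 fell with adriamycin against the control and none passed with etoposide. Over all tested genes 19.1% rose and 17.0% fell with adriamycin and 23.4% passed with etoposide. The 4 were C1QTNF12 (log2 fold change 0.84), SCNN1D (0.96), ACAP3 (0.39) and INTS11 (0.27), and the gene that fell was CPTP (-1.44). Within 100 kb of the start of UBE2J2, 11 other genes were tested, and the same 4 rose and the same 1 fell with adriamycin. There 1 gene, DVL1, passed with etoposide and fell (log2 fold change -0.75, adjusted p = 3.35e-14 by edgeR). SDF4 and UBE2J2 thus stood among neighbours of both directions. TNFRSF4, which is next to SDF4, had 0 to 12 counts and was not tested, and LINC01786, beyond the 5′ end of UBE2J2, did not pass (0.57 with adriamycin, adjusted p = 0.439).

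At RER1, the neighbour MORN1 behaved otherwise than RER1 itself. Within 100 kb of the start of RER1, 3 other genes were tested, MORN1 among them. Of these, 1 rose with etoposide, none passed with adriamycin against the control, and 2 were lower with adriamycin than with etoposide. The shares over all tested genes were 6.38%, 36.2% and 24.5%. Beside MORN1, the gene lower between the drugs was ENSG00000269896 (log2 fold change -1.60), with 6 to 70 counts per library. Raw counts of MORN1 were 160 and 109 in the controls, 271 and 188 with etoposide and 99 and 51 with adriamycin. It rose with etoposide (log2 fold change 0.57, SE 0.18, adjusted p = 0.00798 by edgeR) and was lower with adriamycin than with etoposide (-1.06, SE 0.21, adjusted p = 2.31e-06), while against the control it did not pass with adriamycin (-0.49, adjusted p = 0.0633). For each count of MORN1, RER1 had 10.5 and 11.7 in the controls, 7.96 and 7.07 with etoposide and 14.2 and 21.3 with adriamycin, so the 3 groups did not overlap. PLCH2, on the far side of PEX10, had 1 to 12 counts and was not tested.

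**Figure D4:**
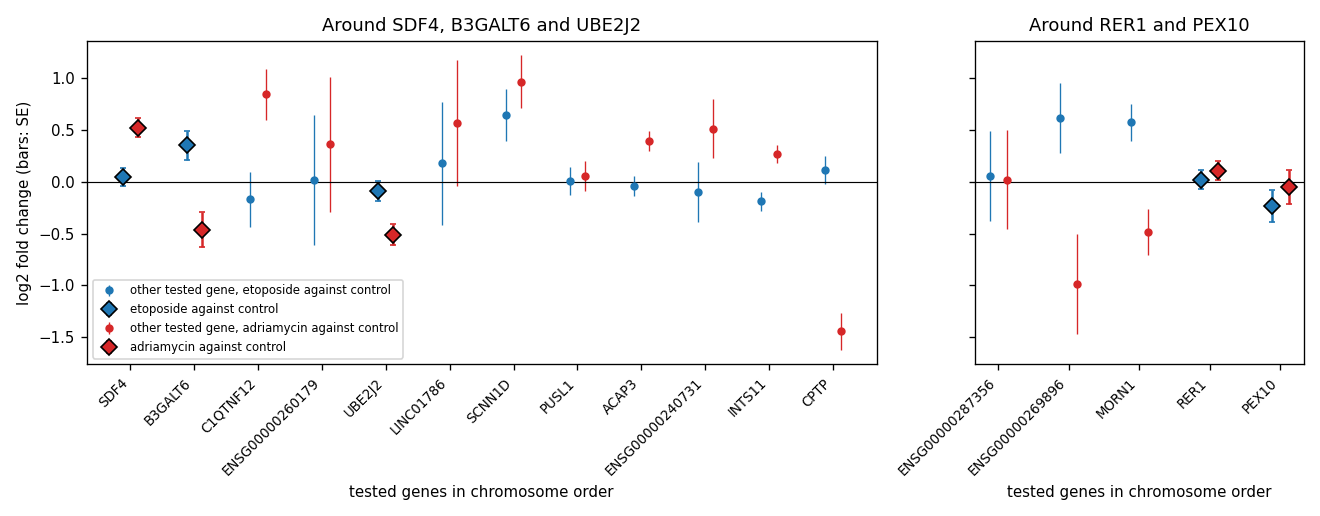
Log2 fold changes (bars: SE) of the tested genes within 100 kb of the start of B3GALT6 (left) and of RER1 (right), in chromosome order at equal spacing, with diamonds for the 5 genes and circles for the others, blue for etoposide and red for adriamycin against the control. Red points lie on both sides of 0 around SDF4 and UBE2J2, from -1.44 (CPTP) to 0.96 (SCNN1D), and RER1 lies near 0 beside MORN1 at 0.57 and -0.49.

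Other genes for traffic, transport or membrane proteins and for secreted or surface proteins in the same stretch of chromosome 1 were listed for comparison. Of 6 genes in the first list, 5 were tested and MMEL1, a membrane endopeptidase gene with 0 to 3 counts, was not. TPRG1L, a synaptic vesicle protein gene, rose with etoposide (log2 fold change 0.57, adjusted p = 0.000956), and none fell. With adriamycin ACAP3, an ARF GTPase-activating protein, rose (0.39, adjusted p = 0.000278), and CPTP, a ceramide-1-phosphate transfer protein, and TPRG1L fell (-1.44, adjusted p = 5.31e-13, and -0.76, adjusted p = 0.000308). Between the drugs, 1 was higher with adriamycin (ACAP3) and 3 were lower (CPTP, TPRG1L and SLC35E2A), beside 21.3% and 24.5% of all tested genes. Against the control, 6.38% of all tested genes were higher and 17.0% lower with etoposide, and 19.1% and 17.0% with adriamycin. SLC35E2A, annotated as a transcribed unprocessed pseudogene, and SLC35E2B are near-identical copies whose reads may be split between them, and their values are uncertain.

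Of 5 genes for secreted or surface proteins, which use the route that SDF4 and RER1 serve, 4 were tested and VWA1, with 0 to 7 counts, was not. AGRN, a basement membrane proteoglycan, fell with etoposide (-0.33, adjusted p = 0.00307 by edgeR) and rose with adriamycin (0.46, adjusted p = 2.01e-05) under TMM scaling. It took 24.6% and 23.9% of the shared counts in the controls, 21.1% and 23.0% with etoposide, and 28.6% and 29.0% with adriamycin. The sizes of its changes depend on the scaling, and values under the other scalings are not given for AGRN. C1QTNF12, a secreted adipokine, rose with adriamycin (0.84, adjusted p = 0.00225). Both genes were also higher with adriamycin than with etoposide (0.79 and 1.01), and MXRA8 and MEGF6 did not pass in any comparison. Over all tested genes, 17.0% were lower with etoposide, 19.1% higher with adriamycin and 21.3% higher with adriamycin than with etoposide. Whether these changes are linked to those of SDF4 or RER1 was not tested.

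The genes whose normalised counts ran most like those of each gene were found by the root mean square distance of centred log2 values over the 6 libraries, as a description with no test, and the libraries share their scaling. For SDF4 these were ENSG00000240731 (0.07), MRPL20 (0.09) and ACAP3 (0.09), and for RER1 they were CDK11B (0.08), NADK (0.11) and FAAP20 (0.12). For UBE2J2 they were ARHGEF16 (0.12), LRRC47 (0.12) and LINC01128 (0.13), and for B3GALT6 they were LINC02593 (0.15), LRRC47 (0.16) and WRAP73 (0.16). PEX10 was nearest to PUSL1 (0.14), SSU72 (0.14) and ATAD3A (0.16). The 5 genes themselves were left out of this search. The smallest distance between any pair of them was 0.18, for RER1 and PEX10, which is larger than every distance listed here.

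In the etoposide libraries the levels could be set beside those of partner genes across the genome, as TPM with merged exon lengths and without a control. SDF4 had 158 and 143 TPM and lay at the 93.4th percentile of 13715 coding genes with at least 10 counts in both libraries, whose median was 16.5. Among the other CREC calcium-binding proteins and the Golgi calcium pump ATP2C1 it ranked 3 of 6, between RCN3 at 196 and ATP2C1 at 38.0. RER1 had 60.9 and 57.7 TPM (80.8th percentile) and ranked 10 of 14 among retrieval receptors and subunits of the COPI coat, which ranged from COPG2 at 19.9 to the KDEL receptor KDELR2 at 453. With the length of the longest transcript in place of merged exons, SDF4 again ranked 3 of 6, and RER1 ranked 7 of 14 at a mean of 83.8 TPM.

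UBE2J2 had 50.2 and 46.7 TPM (76.6th percentile) and ranked 13 of 20 among genes of ER-associated degradation. Its relative UBE2J1 averaged 36.1 and UBE2G2, another conjugating enzyme of this pathway, averaged 79.7. By longest transcript UBE2J2 averaged 69.7 and ranked 12 of 20, beside 27.2 for UBE2J1 and 99.5 for UBE2G2. B3GALT6 had 26.4 and 23.6 TPM (60.3th percentile) and ranked 4 of 6 among enzymes of the glycosaminoglycan linker, below B3GAT3 at 90.2 and above XYLT1 at 6.07, and by longest transcript it averaged 18.8 and ranked 5 of 6.

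PEX10 had 12.8 and 9.58 TPM (40.8th percentile) and ranked 12 of 16 peroxins, or 10 of 16 by longest transcript. PEX2, another peroxisomal ligase, averaged 13.5 TPM, close to PEX10, while their target PEX5 averaged 79.2. These are bulk libraries, in which fewer cells and less RNA per cell cannot be told apart.

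**Figure D5:**
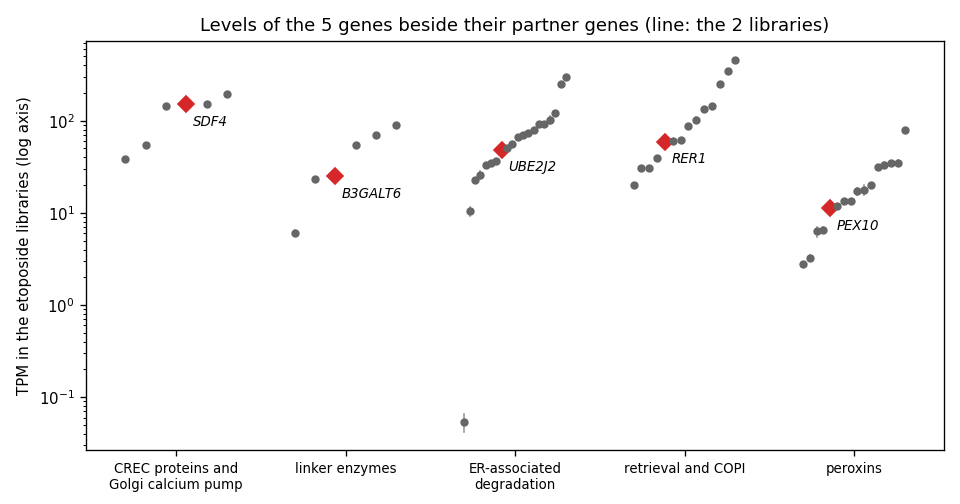
Mean TPM in the 2 etoposide libraries (log axis) of the 5 genes (red diamonds) and of their partner genes (grey circles) in 5 lists, each in ascending order, with vertical lines joining the 2 libraries. SDF4 (150 TPM) ranks 3 of 6 in its list, PEX10 (11.2 TPM) in the lower part of the peroxins, and the lone point under 1 TPM is DERL3 among the genes of ER-associated degradation.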

How the data were processed

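RNA-Seq of U2OS cells was analysed in 6 libraries, 2 each of control, adriamycin and etoposide, grouped by their labels. The authors deposited raw counts per Ensembl gene, whole numbers without normalisation. Per the submitters' processing notes, GRCh38, HISAT2 2.1.0, Subread 2.0.0 with featureCounts and DESeq2 1.30.1 were named. In the control and adriamycin libraries 220 to 292 genes were analysed, and other genes of these libraries were not analysed here, so tests used the 220 genes listed in all 6. The sums over these genes, 59357 to 92794 counts, set the precision and are not depths.

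A single quasi-likelihood model over all libraries was fitted to the counts in edgeR 4.0.16 under R 4.3.3, with TMM normalisation, edgeR's filter on low counts (94 genes tested) and Benjamini-Hochberg adjustment. A gene passed at an adjusted p under 0.01, the threshold of the study, which also asks for a change over 1 on the log2 scale. The common biological coefficient of variation was 7.51%, and the estimate of spread was fully pooled over the tested genes. The procedure was tested on simulated data. For normalised counts, each count was divided by its library's TMM-adjusted size, itself scaled to a geometric mean of 1 over the 6 libraries. TPM used merged GENCODE 44 exons over 60357 of 67140 identifiers with an annotation. Tables and plots were made with Python 3.11.15, pandas 2.3.3 and matplotlib 3.10.9.

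The 5 genes and all gene lists were chosen with earlier results of these data known. Named genes are the 5, their nearest or overlapping genes, the listed traffic and secreted genes, the 3 most alike genes of each, and AGRN. Other named genes, among them SCNN1D, INTS11, the label markers and the genes picked from the partner lists (such as their highest and lowest members), fall outside that rule and were named after their values were seen. Around the ratio of their summed counts, libraries of the same group differed by more than sampling noise (21.3% to 34.7% of 75 genes at a binomial p under 0.05, without adjustment). AGRN enters that ratio, so an offset in scaling can add to these percentages. Alternatives were DESeq2 1.42.0, 4 scalings, 2 filters, fewer libraries, a replicate block, leaving out each library, a looser threshold and, chosen after seeing the data, the earlier edgeR method and the 280 genes of the control and etoposide libraries.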

Additional observations from a re-analysis of the deposited data

How the results depend on the processing

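The increase of SDF4 and the decrease of UBE2J2 with adriamycin against the control kept their direction and an adjusted p under 0.01 in all 17 alternatives, at log2 fold changes of 0.30 to 0.72 and -0.73 to -0.32. Over all alternatives for the 5 genes, 223 values kept direction and side of the threshold, 19 reversed, 11 newly passed and 7 no longer passed. The looser threshold, counted among the alternatives, uses the main fit, so a gene past 0.01 cannot fail it. Leaving out an etoposide library keeps both groups of adriamycin against the control whole. The tally of 223 includes such values. In the adriamycin comparisons every scaling was computed from the 220 shared genes, so no alternative sets a gene against the whole transcriptome. Relative to TMM, the median over the tested genes shifted on the log2 scale by 0.22 and 0.19 with upper-quartile scaling (etoposide and adriamycin against the control). It shifted by 0.20, -0.22 and, between the drugs, -0.42 with summed counts alone, and by 0.15, -0.13 and -0.29 with AGRN left out of the sums.

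With etoposide against the control, 2 of the 5 genes passed under upper-quartile scaling (SDF4 at 0.27 and B3GALT6 at 0.57), and 1, B3GALT6, passed with summed counts alone (0.55), with AGRN left out (0.50) and at an adjusted p under 0.05. UBE2J2 reversed to 0.14, 0.11 and 0.068 under these 3 scalings, and RER1 to -0.0071 in a fit of the 4 libraries compared. Against the control, B3GALT6 also passed with adriamycin under summed counts alone (-0.68), with AGRN left out (-0.59) and by the earlier edgeR method (-0.47, adjusted p = 0.00927). RER1 passed with adriamycin under upper-quartile scaling (0.30, adjusted p = 0.00559), and reversed to -0.11 with summed counts alone and -0.024 with AGRN left out. PEX10 reversed with adriamycin to 0.037 with DESeq2's size factors, 0.038 in DESeq2's Wald test and 0.14 under upper-quartile scaling. Between the drugs, RER1 reversed to -0.33 with summed counts alone (adjusted p = 0.00103), -0.20 with AGRN left out and -0.016 in a fit of 4 libraries, and PEX10 to -0.24 and -0.11 under the first 2 of these. B3GALT6 then exceeded 1 on the log2 scale, so that 1 of the 5 genes was called under each of these 2 scalings instead of 0. The cause was not tested.

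Over all tested genes, the calls past both thresholds were 5 with etoposide (8 at an adjusted p under 0.05), 8 with adriamycin (5 without a filter on low counts, 5 in a fit of 4 libraries) and 12 between the drugs (23 with summed counts alone, 6 with at least 10 counts in every library). Leaving out each library in turn gave 0 to 5, 5 to 8 and 3 to 13 calls, the lowest for etoposide and between the drugs without etoposide replicate 1. The genes among the 5 that passed between the drugs were then 0 to 3, with 0 without etoposide replicate 1, and 2 without etoposide replicate 2 or adriamycin replicate 2. A group's lone library is assumed to vary like the others. Leaving out a library also reversed SDF4 and RER1 with etoposide (ranges -0.029 to 0.082 and -0.029 to 0.053) and PEX10 with adriamycin (-0.17 to 0.097), none of which passed.

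With the replicate number as a replicate block, 5, 8 and 12 genes were called and 0, 2 and 3 of the 5 genes passed, as without it. Same-numbered libraries did not deviate together (correlations of -0.068, 0.035 and -0.0063 over 75 genes). Whether a number stands for a shared culture or batch was not tested, and scaled values of so few genes cannot show it. The depth limits PEX10 and B3GALT6 most, with 131 to 301 and 114 to 462 counts per library.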
